A study of Drosophila melanogaster with 24 samples.

Results

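The last hours of the night in fly heads were examined by setting libraries from ZT0 (Zeitgeber time 0, when the lights come on) against libraries from ZT20, late in the dark phase. These are 8 of the 24 RNA-seq libraries of the series, chosen by their labelled time of day: 2 from old flies at ZT0, 2 from old flies at ZT20, 2 from young flies at ZT0 and 2 from young flies at ZT20. Old flies were 55 days and young flies 5 days of age. All were females of the w1118 strain, a white-eyed line mutant in *white* and the control genotype of the study, kept in 12 h of light and 12 h of dark. Each library came from a pool of heads, so brain, eye, fat body and cuticle were sampled together, and poly(A)-selected RNA was sequenced with strand information. The samples are labelled as separate replicates, each sampled over a single daily cycle that starts at ZT0. The ZT0 heads of a cycle were therefore collected before, not 4 h after, its ZT20 heads, and the 2 times are compared as neighbours on the daily clock. Levels below are FPKM, read fragments corrected for transcript length and for the number of mapped reads. They are given after all 24 libraries were brought to a common scale by their median ratio. The values of each age came in a separate table, and whether both ages were normalised together was not given in the sources used here. The steps themselves were always taken within an age.

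The fly clock runs on a pair of linked feedback loops. The transcription factors CLOCK and CYCLE switch on *period* and *timeless*, whose proteins build up during the night and then shut off CLOCK and CYCLE, so that the RNAs of their targets are low by dawn. CLOCK and CYCLE also drive *vrille* and *Pdp1*, which act back on *Clk*, and genes repressed by VRILLE follow the opposite course, with RNA high around dawn. The compound eye makes up much of the fly head and has its own clock, and light is sensed there by a signalling cascade that runs from rhodopsin through a G protein and phospholipase C to TRP channels.

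Of 9559 genes with a mean of at least 1 FPKM, 1299 (13.6%) differed between ZT0 and ZT20 over both ages (adjusted *P* ≤ 0.05), of which 627 (6.56% of the genes tested) were higher and 672 (7.03%) lower at ZT0. All 1299 moved in the same direction at each age, and in 1293 of them both ZT0 libraries lay on one side of both ZT20 libraries in old and in young flies, against 2650 (27.7%) of all genes tested. A test over both ages favours genes that move alike at each age and whose libraries lie apart, so the choice of the called genes largely sets both counts. Most of the changes were moderate: the median size was 0.42 on the log2(FPKM + 1) scale, and 15 genes were at least 2-fold higher and 53 at least 2-fold lower. Fold changes on this scale understate the change of genes with low values. The balance of higher and lower genes depended on the scaling, since 48.3% of the called genes were higher after median-ratio scaling, 56.8% after scaling by the 75th percentile and 71.7% with the deposited FPKM values, where the median of all genes stood at 0.07. The calls also rested on few libraries: leaving out any 1 of the 8 left 455 to 1025 called genes, the fewest without the second young ZT0 library, and 354 genes (163 higher, 191 lower) kept their call in all 8 such fits. The first and second library of a group are those of the first and second daily cycle.

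Among the core clock genes, *tim* and *vri* were lower and *cry* was higher at ZT0 at both ages. *timeless* (*tim*; 2L:3493986-3508119, BDGP6), the partner of PERIOD in the repressor complex, had 44.3 and 46.7 FPKM in old ZT0 heads, against 98.0 and 98.5 FPKM in old ZT20 heads. It had 31.6 and 33.9 FPKM in young ZT0 heads, against 108 and 111 FPKM in young ZT20 heads. Every ZT0 library was below every ZT20 library, with no overlap at either age. Over both ages *tim* fell by 1.41 ± 0.13 (log2, s.e.; adjusted *P* = 0.00381).

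*vrille* (*vri*; 2L:5288944-5311223), a leucine zipper repressor of *Clk*, had 29.5 and 37.2 FPKM in old ZT0 heads, against 78.4 and 64.9 FPKM in old ZT20 heads, and 17.4 and 15.1 FPKM in young ZT0 heads, against 59.9 and 54.0 FPKM in young ZT20 heads. The groups were again apart at both ages, and *vri* fell by 1.42 ± 0.16 (adjusted *P* = 0.00643). *cryptochrome* (*cry*; 3R:19212154-19215442), the blue-light receptor of clock cells, ran the other way. It had 62.7 and 55.7 FPKM in old ZT0 heads, against 34.6 and 35.9 FPKM in old ZT20 heads, and 68.9 and 67.7 FPKM in young ZT0 heads, against 40.1 and 37.3 FPKM in young ZT20 heads. Every ZT0 library exceeded every ZT20 library, and *cry* rose by 0.77 ± 0.06 (adjusted *P* = 0.00381). The calls of *tim*, *vri* and *cry* held in all 8 fits that left out 1 library.

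*period* (*per*; X:2685580-2692780) was near its floor at both times. It had 2.91 and 2.05 FPKM in old ZT0 heads, against 3.76 and 3.23 FPKM in old ZT20 heads, and 1.32 and 1.16 FPKM in young ZT0 heads, against 2.11 and 2.01 FPKM in young ZT20 heads. The groups did not overlap and *per* fell by 0.41 ± 0.10 (adjusted *P* = 0.037), but this call was kept in only 1 of the 8 fits without a library, with an adjusted *P* of up to 0.101 without the first old ZT20 library. The remaining 4 core genes did not pass the test. *Pdp1*, the activator opposed to VRILLE, differed by -0.24 ± 0.08 (adjusted *P* = 0.0888), *Clk* by -0.27 ± 0.15 (0.25) and the CLOCK repressor gene *cwo* by 0.14 ± 0.08 (0.265). *cyc*, whose RNA is known to be constant over the day, differed by -0.01 ± 0.09 (0.979).

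**Figure D1:**
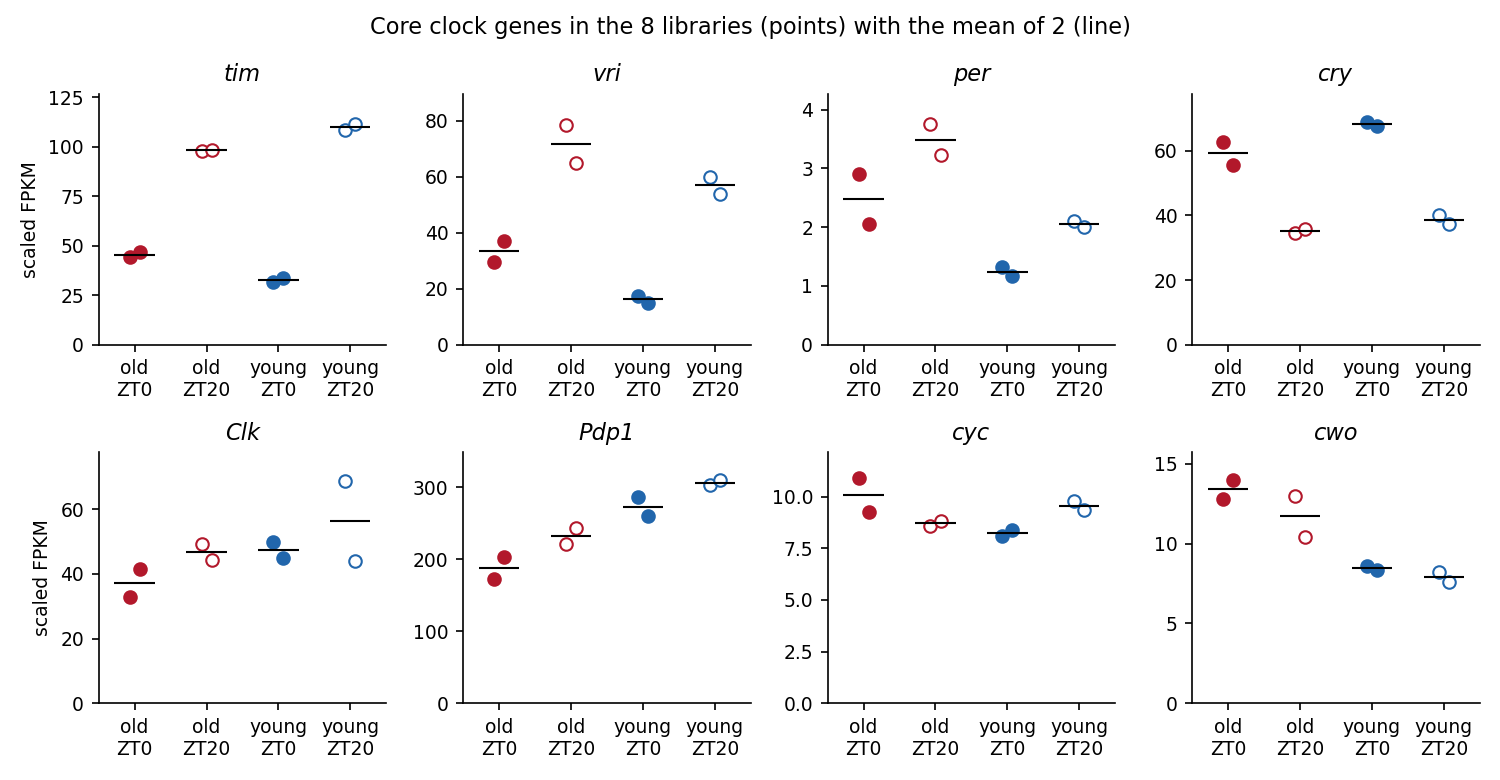
Scaled FPKM (y axis, from 0) of the 8 core clock genes in each of the 8 libraries (points; red old, blue young; filled ZT0, open ZT20), with the mean of 2 libraries as a line. *tim* and *vri* were lower at ZT0 than at ZT20 at both ages with no overlap, *cry* was higher, and the *Clk* values at ZT0 (32.8 and 41.6 FPKM in old, 49.8 and 44.8 in young heads) overlapped those at ZT20 in young heads (68.9 and 43.9).

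Placed in the whole day, the step fell within the nightly decline of *tim* and *vri*. In old heads *tim* averaged 45.5 FPKM at ZT0 and 47.2 FPKM at ZT4, and was highest at ZT12 with 169 FPKM. In young heads it averaged 32.7 FPKM at ZT0, reached its lowest mean at ZT4 with 17.8 FPKM and was highest at ZT16 with 197 FPKM. The decline of *tim* thus continued after ZT0 in young heads, while in old heads the ZT0 and ZT4 means lay close together. The *vri* mean was lowest at ZT0 at both ages, with 33.4 FPKM in old and 16.3 FPKM in young heads. *cry* was already above its ZT16 minimum at ZT20, and between ZT0 and ZT4 its means were 59.2 and 64.9 FPKM in old heads and 68.3 and 71.0 FPKM in young heads. The same test applied to the other 5 steps of the day called 10.6% of the genes from ZT0 to ZT4, 3.04% from ZT4 to ZT8, 0.0105% from ZT8 to ZT12, 0.167% from ZT12 to ZT16 and 0.282% from ZT16 to ZT20. The median size of the change over all genes differed less, with 0.152 from ZT20 to ZT0 and 0.0868 from ZT8 to ZT12. Shares of called genes depend on the spread between replicates as well as on the size of the change. Neighbouring steps share libraries, and the differences between these shares were not tested.

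**Figure D2:**
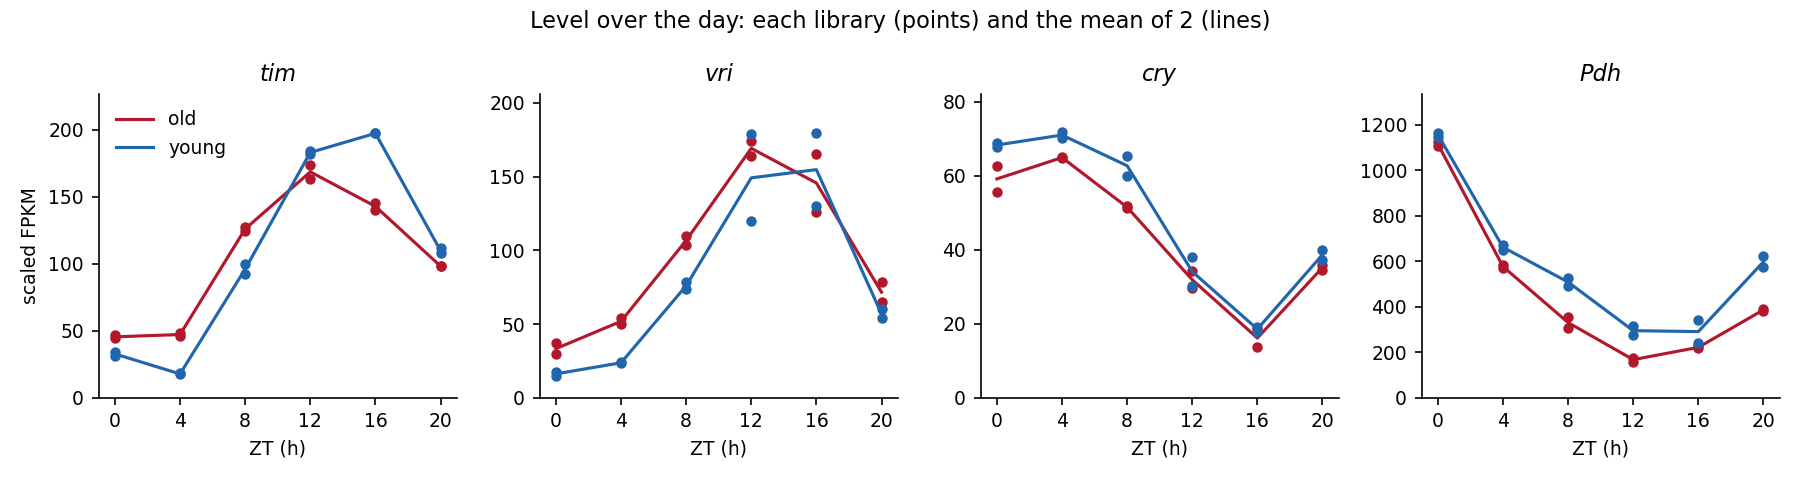
Scaled FPKM (y axis, from 0) against time of day (x axis, ZT in hours) for *tim*, *vri*, *cry* and *Pdh*, with each library as a point and the mean of 2 libraries as a line (red old, blue young). The values at ZT0 are near the trough for *tim* and *vri*, near the peak for *cry*, and at the peak for *Pdh* (1114 FPKM in old and 1155 FPKM in young heads).

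Among the genes that rose most were an eye enzyme and the enzyme that breaks down juvenile hormone. *Photoreceptor dehydrogenase* (*Pdh*; 3L:16353233-16354297), a retinol dehydrogenase of the pigment cells of the eye, had 1123 and 1106 FPKM in old ZT0 heads, against 389 and 383 FPKM in old ZT20 heads, and 1164 and 1146 FPKM in young ZT0 heads, against 621 and 574 FPKM in young ZT20 heads. On the common scale the 4 ZT0 libraries were nearly equal. The old mean was below the young mean at every other time, such as ZT4 (576 against 661 FPKM) and ZT12 (168 against 295 FPKM). Levels between ages depend on the scaling and were not tested. *Pdh* rose by 1.24 ± 0.12 (adjusted *P* = 0.00422). *Jhe*, juvenile hormone esterase, had 2.86 and 2.04 FPKM in old ZT0 heads, against 0.272 and 0.585 FPKM in old ZT20 heads, and 3.43 and 2.76 FPKM in young ZT0 heads, against 0.393 and 0.448 FPKM in young ZT20 heads. All ZT0 values were above all ZT20 values, and *Jhe* rose by 1.40 ± 0.13 (adjusted *P* = 0.00381). The lowest adjusted *P* of all genes, 0.00305, belonged to *CG12116*, with 109 and 118 FPKM in old ZT0 heads, against 45.7 and 51.7 FPKM in old ZT20 heads, and 92.6 and 98.0 FPKM in young ZT0 heads, against 43.0 and 45.7 FPKM in young ZT20 heads. These levels did not overlap, the rise was 1.15 ± 0.06, and its size was similar at both ages (1.21 in old, 1.09 in young). The other 12 of the 15 largest rises ran from 1.03 for *ND-MWFE*, a subunit of respiratory complex I, through 1.07 for *Rpb12*, a subunit shared by the RNA polymerases, and 1.12 for the cuticle protein gene *Lcp65Ac*, to 2.23 for the noncoding RNA gene *CR44816*. Of all 15, the calls of *CR44816*, *IM14*, *CG9377* and *CG40127* were lost in some fits without a library, with adjusted *P* values of up to 0.0768 (*CR44816*), 0.0914 (*IM14*), 0.077 (*CG9377*) and 0.0568 (*CG40127*).

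The 15 largest falls were of another kind, because 13 of them were small nucleolar RNAs (snoRNAs), short guides of RNA modification that are mostly cut from introns of other genes. FPKM values of such short RNAs are unstable in poly(A)-selected libraries. Of 186 snoRNA genes and related scaRNA genes tested, 17 were lower and none was higher at ZT0. Over all 9559 genes, 672 (7.03%) were lower and 627 (6.56%) higher. Of the 263 tested genes with a longest transcript under 300 bases, 8.75% were called, against 13.6% of all genes. The snoRNA and scaRNA genes stand out by the size of their falls, and 155 were listed at 0 in at least 1 of the 8 libraries. Their median standard error was 0.956, against 0.0928 for all other genes. Summed over these genes, the level was 2865 and 2879 FPKM in old ZT0 heads, against 48737 and 53998 FPKM in old ZT20 heads, and 5481 and 5937 FPKM in young ZT0 heads, against 128660 and 15060 FPKM in young ZT20 heads. The ZT20 sums were higher at both ages but differed 8.54-fold between the young ZT20 libraries. *snoRNA:Me28S-U2134a*, from within the ribosomal protein gene *RpL13A*, had the largest fall and was listed at 0 in both old ZT0 libraries.

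Among genes with transcripts of at least 300 bases, a set chosen after these values were seen, the genes that fell most were *CG34309* (log2 fold change -3.24, kept in 1 of the 8 fits without a library), *CR44107* (-2.14), *CR44982* (-2.13), *CG45081* (-2.07, kept in 6) and *CG41128* (-2.05), and no role is given here for these genes. The falls of *CR44107*, *CR44982* and *CG41128* were called in all 8 fits. Some genes of known function follow. *RpS18*, which encodes a protein of the small ribosomal subunit, had 766 and 734 FPKM in old ZT0 heads, against 1969 and 1510 FPKM in old ZT20 heads, and 529 and 538 FPKM in young ZT0 heads, against 2218 and 1531 FPKM in young ZT20 heads. The groups did not overlap at either age, and *RpS18* fell by 1.49 ± 0.18 (adjusted *P* = 0.00718). *mRpL33*, which encodes a protein of the mitochondrial ribosome, had 49.6 and 51.6 FPKM in old ZT0 heads, against 140 and 128 FPKM in old ZT20 heads, and 76.3 and 63.1 FPKM in young ZT0 heads, against 205 and 146 FPKM in young ZT20 heads. It fell by 1.35 ± 0.12 (adjusted *P* = 0.00381), again with no overlap. *rudimentary* (*r*), the enzyme that starts pyrimidine synthesis, fell by 1.30 ± 0.13 (adjusted *P* = 0.00392). The odorant binding protein gene *Obp99a* had 13.9 and 12.2 FPKM in old ZT0 heads, against 25.5 and 23.6 FPKM in old ZT20 heads, and 14.3 and 13.4 FPKM in young ZT0 heads, against 57.0 and 113 FPKM in young ZT20 heads. Its groups were apart, but the young ZT20 libraries differed widely, and the fall of 1.66 ± 0.35 (adjusted *P* = 0.0271) was called in 3 of the 8 fits without a library, with an adjusted *P* of up to 0.0802 without the second young ZT0 library.

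Called genes of the phototransduction cascade, of histamine transmission and of the synaptic release machinery were all higher at ZT0. In bulk heads, fewer cells of a type and less RNA per cell cannot be told apart. Of 17 phototransduction genes, 6 (35.3%, against 6.56% of all genes) rose and none (against 7.03%) fell. Their median was 0.24, against 0.0046 over all genes. *inaC*, the protein kinase C of the eye, had 341 and 372 FPKM in old ZT0 heads, against 279 and 260 FPKM in old ZT20 heads, and 483 and 504 FPKM in young ZT0 heads, against 353 and 362 FPKM in young ZT20 heads. The groups did not overlap, the rise was 0.43 ± 0.06 (adjusted *P* = 0.00945), and the call held in all 8 fits without a library. *Galphaq*, the G protein subunit that couples rhodopsin to phospholipase C, rose by 0.39 ± 0.07 (adjusted *P* = 0.0164), a call lost without the second young ZT0 library (0.0592). The others were *inaD*, the scaffold of the cascade, with 0.39, the G protein subunit gene *Gbeta76C* with 0.31, the myosin III kinase gene *ninaC* with 0.31 and the rhodopsin kinase gene *Gprk1* with 0.24. The calls of *Gbeta76C* and *ninaC* were kept in 1 of the 8 fits each, that of *inaD* in 2 and that of *Gprk1* in none. The channel genes *trp* (-0.13, adjusted *P* = 0.245) and *trpl* (0.18, 0.134) and the phospholipase C gene *norpA* (-0.10, 0.438) did not pass the test. Of 9 genes of chromophore supply and rhodopsin maturation, 1 rose and 1 fell (11.1% each, against 6.56% and 7.03% of all genes). *Pdh* was higher, as given above. *ninaA*, the chaperone of rhodopsin, differed by -0.26 ± 0.07 (adjusted *P* = 0.0443), a call kept in none of the 8 fits. None of the 7 rhodopsin genes passed the test, and their differences ran from -0.26 for *Rh3* to 0.24 for *ninaE*, the main rhodopsin. The summed level of 4 photoreceptor markers (*ninaE*, *trp*, *Arr2* and *chp*) was 14068 and 14851 FPKM in old ZT0 heads, against 10918 and 11568 FPKM in old ZT20 heads, and 16026 and 16313 FPKM in young ZT0 heads, against 14885 and 15536 FPKM in young ZT20 heads. None of these 4 markers was called, and the part of their level in the rise of the cascade was not tested.

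Histamine is the transmitter of fly photoreceptors. Of 5 genes of histamine transmission tested, 2 (40%, against 6.56% of all genes) rose and none (against 7.03%) fell. *tan* (*t*), the hydrolase that recovers histamine from its conjugate carcinine, had 148 and 153 FPKM in old ZT0 heads, against 88.5 and 91.7 FPKM in old ZT20 heads, and 172 and 167 FPKM in young ZT0 heads, against 125 and 121 FPKM in young ZT20 heads. *HisCl1*, a histamine-gated chloride channel, had 10.5 and 11.0 FPKM in old ZT0 heads, against 8.40 and 8.27 FPKM in old ZT20 heads, and 13.6 and 12.7 FPKM in young ZT0 heads, against 9.84 and 9.68 FPKM in young ZT20 heads. Both genes were higher in each ZT0 library than in any ZT20 library of the same age. The rise was 0.60 ± 0.07 for *t* (adjusted *P* = 0.00683) and 0.36 ± 0.05 for *HisCl1* (adjusted *P* = 0.00945), and both calls held in all 8 fits without a library.

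All 10 genes of the synaptic release machinery had positive differences, with a median of 0.14. Of these, 3 (30%, against 6.56% of all genes) were called higher. *brp*, which builds the active zone, rose by 0.31 ± 0.05 (adjusted *P* = 0.015), the SNARE gene *Snap25* by 0.35 ± 0.07 (0.02) and *Rop*, the Sec1/Munc18 protein, by 0.23 ± 0.06 (0.0432). None of the 3 calls held in all 8 fits without a library: *brp* kept its call in 6, *Snap25* in 5 and *Rop* in 1, with adjusted *P* values of up to 0.0526, 0.0585 and 0.114.

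**Figure D3:**
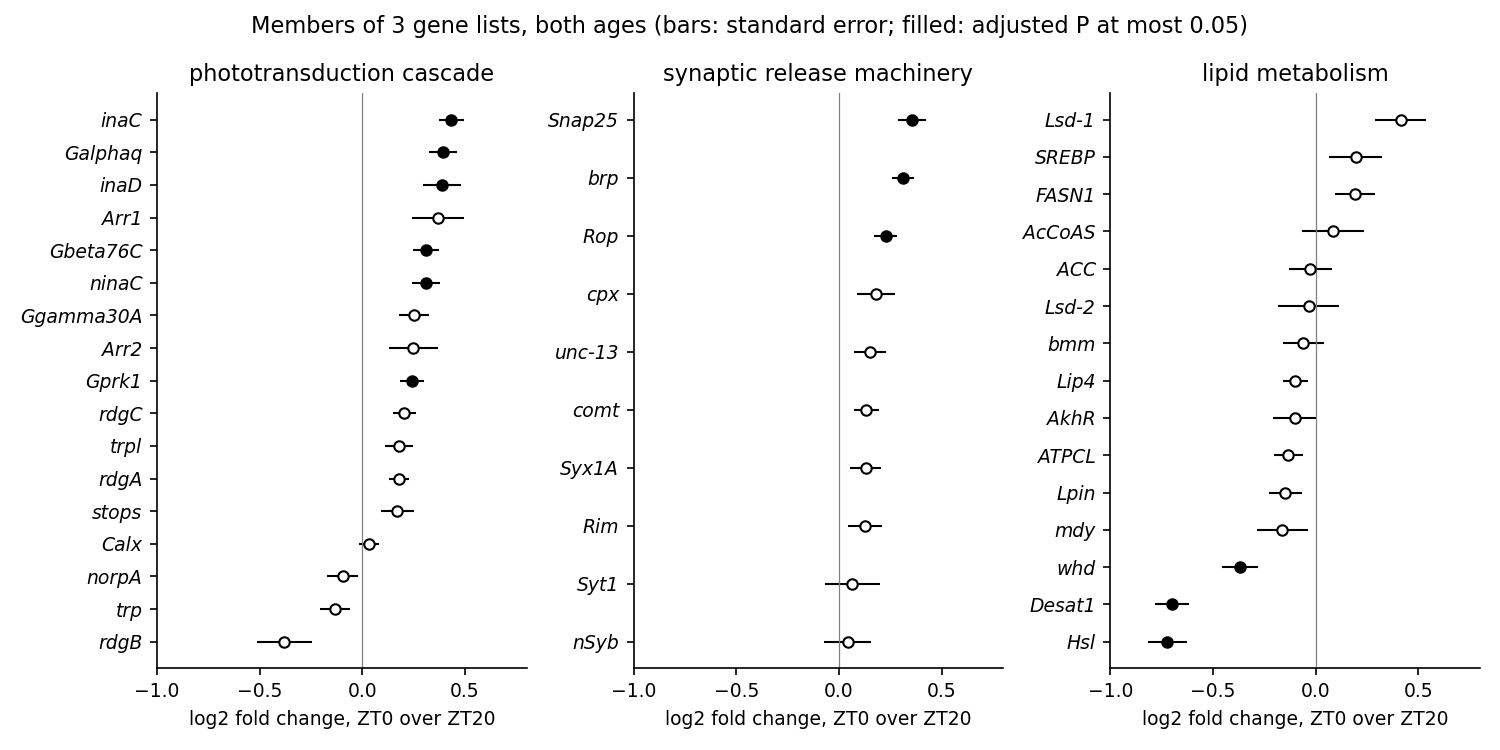
Log2 fold change of ZT0 over ZT20 over both ages (x axis) for each tested member (rows) of 3 gene lists, with the standard error as a bar and calls at an adjusted *P* of at most 0.05 as filled points. Called members lie right of 0 in the phototransduction cascade (6 of 17) and the synaptic release machinery (3 of 10), and left of 0 in lipid metabolism (3 of 15). Over all genes tested, 6.56% were called higher and 7.03% lower.

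Neuropeptide genes moved both ways, with 6 of 24 (25%, against 6.56% of all genes) higher and 1 (4.17%, against 7.03%) lower. Their median was 0.02. *Dsk*, the gene of the cholecystokinin-like drosulfakinins, had 56.3 and 64.3 FPKM in old ZT0 heads, against 33.9 and 38.7 FPKM in old ZT20 heads, and 54.5 and 61.5 FPKM in young ZT0 heads, against 32.8 and 34.7 FPKM in young ZT20 heads. On the common scale the levels at the 2 ages were alike, and they did not overlap between times. *Dsk* rose by 0.74 ± 0.07 (adjusted *P* = 0.0041) in a call kept in all 8 fits without a library. *AstC* (allatostatin C), *Nplp2*, *Dh44* (a diuretic hormone), *SIFa* and *sNPF* were higher by 0.50, 0.72, 0.32, 0.46 and 0.28, but *AstC* lost its call in 2 of the 8 fits, *Nplp2* in 5, and *Dh44*, *SIFa* and *sNPF* in 7 each. *Ilp2*, an insulin-like peptide of the brain, fell by 0.51 ± 0.12 (adjusted *P* = 0.0391), with its call kept in 1 of the 8 fits. The gene of the clock neuron peptide PDF did not pass the test (0.07, adjusted *P* = 0.801).

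The called genes of lipid metabolism were all lower at ZT0. Of 15 tested, 3 (20%, against 7.03% of all genes) fell and none (against 6.56%) rose, with a median of -0.10. *Desat1*, the fatty acid desaturase, had 1171 and 1257 FPKM in old ZT0 heads, against 1820 and 1820 FPKM in old ZT20 heads, and 914 and 952 FPKM in young ZT0 heads, against 1583 and 1696 FPKM in young ZT20 heads. *Hsl*, the hormone-sensitive lipase, had 18.8 and 22.9 FPKM in old ZT0 heads, against 37.3 and 38.5 FPKM in old ZT20 heads, and 25.3 and 21.6 FPKM in young ZT0 heads, against 38.5 and 33.6 FPKM in young ZT20 heads. Neither gene overlapped between times, so an enzyme of fatty acid synthesis and one of fat breakdown were both low at ZT0. *Desat1* fell by 0.70 ± 0.08 (adjusted *P* = 0.00728) and *Hsl* by 0.72 ± 0.10 (adjusted *P* = 0.00899), in calls kept in all 8 fits without a library. *whd*, the carnitine palmitoyltransferase that brings fatty acids into mitochondria, fell by 0.37 ± 0.09 (adjusted *P* = 0.0378), a call kept in 1 of the 8. With the deposited FPKM values, 1 lipid gene was higher and 2 were lower. The summed level of 4 head fat body markers ranged from 6750 to 15652 FPKM at ZT0 and from 5817 to 29228 FPKM at ZT20, and its part in the fall was not tested.

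Genes of glucose metabolism, glia and stress gave calls in both directions, and activity-regulated genes gave only higher ones. Of 12 glycolysis genes, 2 (16.7%, against 6.56% of all genes) rose and 1 (8.33%, against 7.03%) fell. *Gapdh1* rose by 0.37 ± 0.05 (adjusted *P* = 0.0104, kept in all 8 fits without a library) and *Pglym78* by 0.46 (kept in 2). *ImpL3*, lactate dehydrogenase, fell by 0.64 (kept in none). Of 9 glial genes, 1 (11.1%) rose and 2 (22.2%) fell. Among them *Eaat1*, the glutamate transporter of astrocyte-like glia, had 115 and 131 FPKM in old ZT0 heads, against 160 and 167 FPKM in old ZT20 heads, and 179 and 170 FPKM in young ZT0 heads, against 241 and 228 FPKM in young ZT20 heads. It fell by 0.42 ± 0.06 (adjusted *P* = 0.0102, kept in all 8 fits) with no overlap and almost the same size in old (-0.41) and young heads (-0.42). In the same list *moody*, a receptor of the blood-brain barrier glia, fell by 0.41 and *alrm*, an astrocyte gene, rose by 0.37. Both calls were lost in some of the 8 fits, with adjusted *P* values of up to 0.0893 and 0.0585. Of 11 antioxidant and cnc-Keap1 genes, 2 rose and 2 fell (18.2% each), with a median of -0.06. *GstD1*, a glutathione transferase, rose by 0.47 ± 0.08 (adjusted *P* = 0.0141, kept in all 8 fits) and *cnc* by 0.22 (kept in 1). *Gclc* fell by 0.42 (kept in 1) and *Trxr-1* by 0.30 (kept in 2). Of 7 activity-regulated genes, 2 (28.6%) rose and none fell. Among them *puc*, the phosphatase that restrains JNK signalling, rose by 0.49 ± 0.08 (adjusted *P* = 0.0136, kept in all 8 fits). Of 14 heat shock and chaperone genes, *Hsp22* alone was called (7.14% lower, against 7.03% over all genes). It had 69.4 and 72.2 FPKM in old ZT0 heads, against 141 and 108 FPKM in old ZT20 heads, and 8.41 and 8.51 FPKM in young ZT0 heads, against 14.98 and 9.36 FPKM in young ZT20 heads. It was lower at ZT0 at both ages, by 0.62 ± 0.16 (adjusted *P* = 0.0443), in a call kept in 1 of the 8 fits and not made with the deposited FPKM values.

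Among larger families, 19 of 84 cytosolic ribosomal protein genes (22.6%, against 6.56% of all genes) rose and 2 (2.38%, against 7.03%) fell, with a median of 0.24. Of these calls, 5 held in all 8 fits without a library (4 higher, 1 lower). *RpL30* had 1004 and 989 FPKM in old ZT0 heads, against 556 and 451 FPKM in old ZT20 heads, and 866 and 992 FPKM in young ZT0 heads, against 563 and 477 FPKM in young ZT20 heads. It rose by 0.91 ± 0.10 (adjusted *P* = 0.00643), while *RpS18* fell as described above, so members of the family changed in opposite directions. In old heads 36 members (42.9%, against 4.45% of all genes) were called higher and 1 lower, with a median of 0.45. In young heads 2 members (2.38%, against 1.31%) were called higher and 1 lower, with a median of 0.0047. No member passed the test of a difference between ages, and no difference of the family between ages is shown by these counts. Ribosomal protein transcripts are short (median of the longest transcript 887 bases), and after the trend with transcript length was removed from each library the medians were 0.36 in old and -0.01 in young heads, with 16 higher and 4 lower over both ages. Over all genes 6.56% were called higher and 7.03% lower. Of 72 mitochondrial ribosomal protein genes, 3 (4.17%) rose and 8 (11.1%) fell. Of 35 proteasome subunit genes, 2 (5.71%) rose and 7 (20%) fell, among them *Prosalpha5* (-0.78 ± 0.09, adjusted *P* = 0.00683). Of 60 cytochrome P450 genes, 5 (8.33%) rose and 8 (13.3%) fell, and of 29 glutathione transferase genes, 6 (20.7%) rose and 1 (3.45%) fell. The calls that held in all 8 fits without a library were 5 in the mitochondrial ribosomal, 4 in the proteasome, 8 in the P450 and 2 in the transferase list. With the deposited FPKM values the excess of lower members was smaller or gone, with 5 higher and 6 lower mitochondrial ribosomal protein genes, 4 and 4 proteasome genes, and 5 and 5 cytochrome P450 genes. With the length trend removed it remained, with 2 higher and 12 lower, 1 and 6, and 5 and 9 in the same 3 lists. Genes of muscle sarcomere (12), yolk and fat body secreted proteins (7) and nucleolar ribosome biogenesis (8) gave no call.

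Transcript length moved with the step in old flies. Over 4870 protein-coding genes of at least 10 FPKM, the level of the old ZT0 libraries relative to the mean of all libraries fell by 0.118 and 0.114 (log2) with each doubling of transcript length, against 0.040 and 0.021 in the old ZT20 libraries. In the other 22 libraries this slope ran from -0.057 to 0.131. The median step in old heads was 0.18 for genes whose longest transcript has 500 to 750 bases and -0.10 for genes of 5000 bases or more, and in young heads it was 0.06 and 0.0022. Genes called higher had a median longest transcript of 1659 bases and genes called lower one of 2284 bases, against 1973 bases over all genes tested. With the length trend removed, 1413 genes were called, and 1132 of the 1250 called genes that enter this fit were called again in the same direction. The phototransduction list then had 9 higher and no lower members, and *tim*, *vri*, *cry* and *Pdh* kept their calls. What gave the old ZT0 libraries this trend was not tested.

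**Figure D4:**
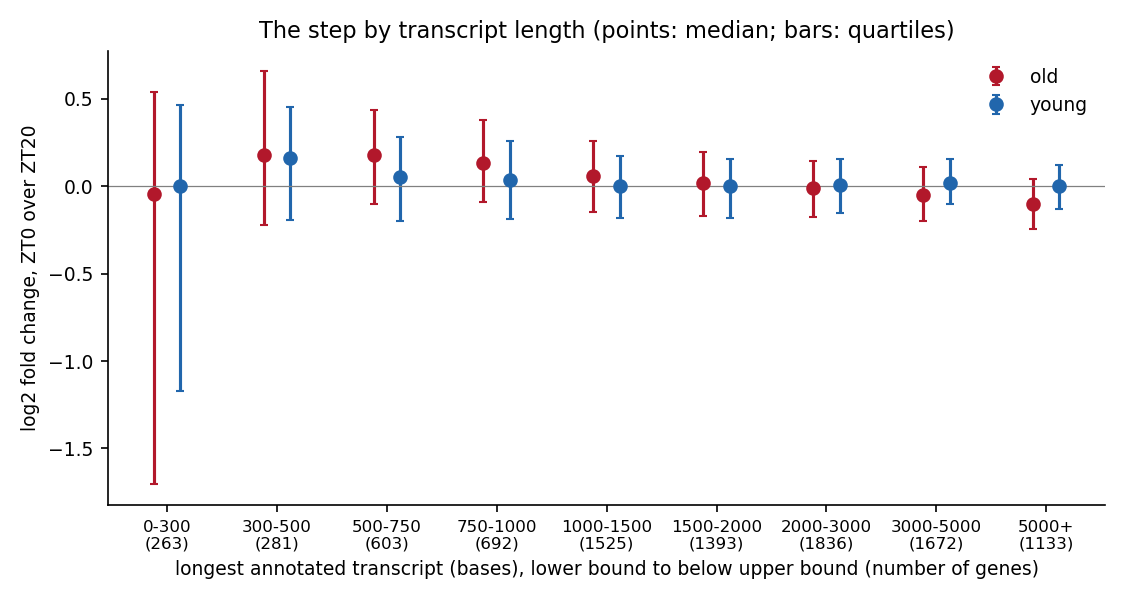
Log2 fold change of ZT0 over ZT20 (y axis) by the length of the longest annotated transcript (x axis, classes in bases with the number of genes), as the median (points) and quartiles (bars) over genes in old (red) and young (blue) heads. From 500 bases upward the old medians decline from 0.18 to -0.10 and the young medians stay between 0.00034 and 0.06.

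The question of whether the step has the same size at each age was put to a direct test. In old heads alone 853 genes (8.92%) were called, 425 higher (4.45%) and 428 lower (4.48%), and in young heads alone 270 genes (2.82%), 125 higher (1.31%) and 145 lower (1.52%). Both lists shared 127 genes, 14.9% of the old and 47.0% of the young calls, and 124 of these moved the same way. These counts are not a measure of the difference between ages, and they rest on 2 libraries per group. Leaving out any 1 library leaves its group with a single library, and the counts at each age varied widely between such fits. The difference of the steps passed the test in 5 genes (0.0523%), with 2 (0.0209%) more positive and 3 (0.0314%) more negative in old heads. All 5 are RNAs under 300 bases that were listed at 0 in 1 or more groups. Such groups show no spread, which lowers the *P* value, so these 5 are not taken as differences between ages. At an unadjusted *P* of at most 0.05 there were 1255 of the 9559 genes. Among transcripts of at least 300 bases limma called 0 of 9135 genes, with 1228 at an unadjusted *P* of at most 0.05. Both are larger shares than the 0.05 that equal steps would give on average. The lack of called genes therefore does not show that the steps were equal. In simulated data for 9559 genes, 108 of 200 genes with steps that differed by 1 on the log2 scale were found, so differences of that size could be missed.

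Over the 1299 called genes the median size of the step was 0.43 in old and 0.38 in young heads, and 788 had the larger step in old heads. Over all genes tested the medians were 0.19 and 0.16. With the length trend removed, the called genes had median sizes of 0.40 in old and 0.36 in young heads. *tim* and *vri* had the larger step in young heads. *tim* fell by 1.09 in old and by 1.72 in young heads, a difference of 0.62 ± 0.09 (unadjusted *P* = 0.000489, adjusted *P* = 0.149), and *vri* by 1.08 in old and 1.75 in young heads, a difference of 0.67 ± 0.21 (unadjusted *P* = 0.0192, adjusted *P* = 0.296). *cry* rose by 0.73 in old and 0.81 in young heads, a difference of -0.08 ± 0.11 (adjusted *P* = 0.817). *Pdh* rose more in old heads, by 1.53 against 0.95 in young heads, a difference of 0.57 ± 0.11 (unadjusted *P* = 0.00215, adjusted *P* = 0.194). None of these 4 differences passed the adjusted test, and each kept its sign with the length trend removed and with the deposited FPKM values.

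**Figure D5:**
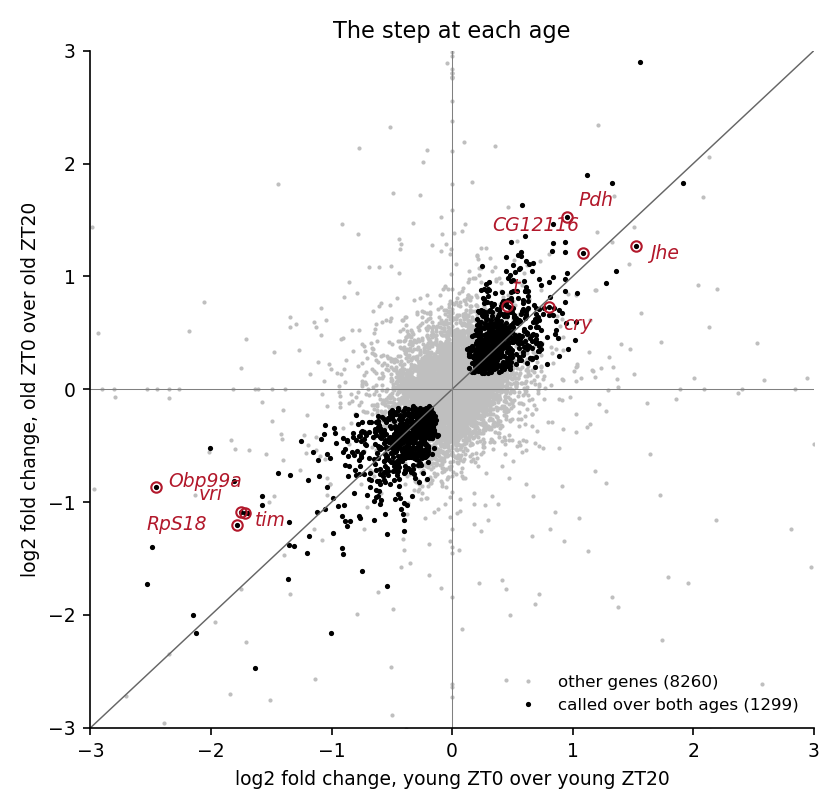
Log2 fold change of ZT0 over ZT20 in old heads (y axis) against young heads (x axis) for the 9559 genes tested, with the 1299 called over both ages in black, named genes circled in red and equal steps along the diagonal. Called genes lie in the lower left and upper right quadrants only, *tim* and *vri* have the larger fall in young heads and *Pdh* the larger rise in old heads, and 66 genes lie outside the axes.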

How the data were processed

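The authors aligned reads with TopHat to BDGP6 (dm6), computed FPKM per gene with Cuffdiff and deposited these FPKM values in a table for each age. The ARSER P values, q values, phases and periods in the same tables are the study's own results and were not used. FPKM keeps no read numbers, so the depth of a library is unknown and errors are those of the fit over libraries. Column names give hours 0 to 44, so columns were assigned to age and time of day, and cycles were numbered from the hours.

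For scaling, each library was divided by its median ratio to the geometric mean of the 24 libraries, over 9159 genes above 0 in all. Pre-microRNA hairpins (237) were left out. Genes with a mean of at least 1 FPKM were tested with limma 3.58.1 (R 4.3.3; eBayes with trend) on log2(FPKM + 1), with age as a block, and at each age with 1 mean per group. P values were adjusted by Benjamini-Hochberg over all 9559 genes. Checks on simulated data recovered 173 of 200 genes changed by 1 (log2) over both ages and called 10 others. Replicate libraries correlated at r from 0.963 to 0.973 over genes. Ovary, gut and male tract markers summed to at most 0.287, 1.80 and 0.393 FPKM in any library. Lengths and coordinates are from the Ensembl BDGP6 annotation, which matched 98.3% of the tested genes.

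Named genes were drawn from the core clock genes, the 15 largest called changes each way, up to 4 called members of each list, and the 10 strongest differences between ages. Not all of these are named in the text, and others were chosen after their values were seen. The members and lists were chosen with earlier results of these data known. Replicates are separate samples by label, and whether they share rearing was not given in the sources used here. *CarT* and *Sod1* were not matched, and *Cpr* and *Cyp1* were left out of the families their symbols resemble. Alternatives were the deposited values, the 75th percentile scaling, a pseudocount of 0.1, other filters, all 24 libraries, no trend, a replicate block, an adjusted P of 0.01 and each library left out. Chosen after seeing the data were transcripts of at least 300 bases and removal of the length trend (lowess, span 0.3).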

Additional observations from a re-analysis of the deposited data

Results flagged for a closer look

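In 5 genes the step from ZT20 to ZT0 passed the direct test of a difference between old and young heads. Each is an RNA under 300 bases that was listed at 0 in 1 or more groups. A group listed at 0 in both libraries shows no spread, which lowers the standard error. The small *P* values therefore follow in part from the zeros, and the 5 genes are not taken as differences between ages. The values that follow are the step in old minus that in young heads on the log2(FPKM + 1) scale, which for such genes depends on the pseudocount. The mitochondrial glutamine tRNA *mt:tRNA:Q* differed by 5.79, with 53.8 and 54.9 FPKM in old ZT0 heads and 0 listed in the other 6 libraries. *snoRNA:lola-a* differed by 2.76, with 5.70 and 5.81 FPKM in old ZT0 heads and 0 listed elsewhere. *snoRNA:Me28S-A2113*, from within *RpL30*, differed by -11.86, with 0 listed in old ZT0 heads against 51.3 and 52.3 FPKM in old ZT20 heads, and 48.2 and 99.8 FPKM in young ZT0 heads against 0 listed in young ZT20 heads. *snoRNA:Me28S-G2173* differed by -6.61, and was listed at 0 in old ZT0 heads against 68.1 and 139 FPKM in old ZT20 heads, with 63.9 and 66.2 FPKM in young ZT0 heads against 68.2 and 63.3 FPKM in young ZT20 heads. *snoRNA:U76:54Eb* differed by -6.14, and was above 0 only in young ZT0 heads (96.3 and 49.9 FPKM).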

How the results depend on the processing

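Over both ages 173 genes were called at an adjusted *P* of at most 0.01 (79 higher, 94 lower), against 1299 at 0.05, and the deposited FPKM values gave 1133 higher and 447 lower genes. In old heads the count of 853 was 494 with no filter on low values and 28 at 0.01. In young heads the count of 270 was 142 with no filter, 167 without the eBayes trend, 494 with all 24 libraries, 438 among transcripts of at least 300 bases, 479 with the length trend removed and 7 at 0.01. The 5 genes that passed the test of a difference between ages became 10 with a pseudocount of 0.1 and 8 with no filter. There were 0 among transcripts of at least 300 bases and with the length trend removed (1159 at an unadjusted *P* of at most 0.05). Leaving out each library gave 455 to 1025 genes over both ages (222 to 479 higher, 233 to 557 lower), 19 to 895 in old, 9 to 142 in young heads, and 9 to 20 differences between ages. With the replicate number as a block 940 genes were called over both ages, 556 in old and 74 in young heads, and 5 differed between ages. Same-numbered libraries deviated together weakly or not at all (r from -0.085 to 0.159 over 6 pairs of groups, 1 above 0.1), so the number is not taken as a pairing. The highest r, 0.159, was between old and young ZT20 heads. The paper states that young and old samples run in parallel shared a sequencing lane. The part of a shared lane in steps seen at both ages was not tested. No called gene named here changed sign under an alternative, and of those not called *cyc*, *Pdf*, *mt:CoIII*, *mt:lrRNA* and *CG44325* did. The 2 libraries per group limit every comparison at a single age.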

Other observations

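RNAs of the mitochondrial genome, which are also polyadenylated, gave 3 calls among 31 tested, all lower at ZT0 (9.68%, against 7.03% called lower over all genes). Of the 13 tested with transcripts of at least 300 bases, 9 had a negative difference, with a median of -0.43. *mt:Cyt-b*, cytochrome b of complex III, had 10024 and 13361 FPKM in old ZT0 heads, against 29491 and 42243 FPKM in old ZT20 heads, and 28295 and 22777 FPKM in young ZT0 heads, against 38096 and 47937 FPKM in young ZT20 heads. The groups did not overlap, and the fall was 1.18 ± 0.27 (limma, adjusted *P* = 0.035). The complex I subunit genes *mt:ND2* and *mt:ND5* fell by 1.05 (adjusted *P* = 0.0366) and 0.78 (0.0229). All 3 calls were kept in 2 of the 8 fits without a library. *mt:ND4* (-0.10, adjusted *P* = 0.491) and *mt:CoIII* (0.07, 0.832) did not pass the test, and *mt:lrRNA* was listed at 0 in the first young ZT20 library and at 43883 FPKM in the second.

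The noncoding RNA gene *CR44133*, which lies within the span of the GATA factor gene *srp* on the same strand, fell by 1.52 ± 0.10 (adjusted *P* = 0.00381), with a fall of 1.68 in old and 1.36 in young heads.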
